A study of Mus musculus with 14 samples.

Results

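Gabra6, Cbln1, Cbln3, Zic1, Pcp2, Car8, Calb1, Pvalb, Gng13 and En2 are genes used as markers of the granule neurons and Purkinje cells of the cerebellum. They were taken as a fixed list of 10 symbols. All 10 were found in a table of 23375 genes in mouse brain, and all 10 were among the 14322 genes with 1 FPKM or more (a fragment count relative to transcript length and to the size of the library) in 2 or more libraries. Poly(A) RNA of 14 brain libraries was sequenced, with 2 libraries in each of 7 groups. At E19.5 (an embryonic stage just before birth) there were wild-type, KO2 and KO7 brains. In the adult there were KO2 and KO3 brains and wild-type libraries whose titles divide them into set 1 and set 2. KO2 lacks the differentially methylated regions (DMRs) IG-DMR and H19-DMR. KO3 lacks both of these and also the Rasgrf1-DMR. KO7 lacks the DMRs of Gnas, Peg3, Kcnq1, Snrpn, Igf2r, Grb10 and Nespas. The knockout embryos were made with haploid embryonic stem cells that carried the deletions. The labels do not state it, but the design is known: KO2 and KO3 brains carry only maternal genomes, and KO7 brains only paternal ones, so deletion and parental origin cannot be told apart. The labels give the tissue as brain. They give neither the region dissected, nor sex, adult age, or whether replicates are separate animals, so the spread between libraries may be technical.

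The cerebellum is built around one circuit. Granule neurons, the most numerous neurons of the brain, send parallel fibres to the Purkinje cells, and Purkinje cells are the only output of the cerebellar cortex. Granule neurons are made largely after birth in mice, and they switch on Gabra6 late, as they mature. Purkinje cells are born in the embryo and mature after birth. Gabra6 and Cbln3 are close to restricted to granule neurons and Pcp2 to Purkinje cells and a retinal neuron, whereas Calb1, Pvalb, Gng13, Zic1 and Cbln1 also mark neurons of other brain regions.

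RefSeq start sites on assembly GRCm38.p6 were matched for 6 of the 10 genes (Gabra6, Cbln3, Zic1, Pcp2, Pvalb and Gng13), and the 250 bases before the start are printed, on the gene's own strand, for the 3 genes with the largest differences between the adult libraries. The table of levels was made on mm9, a different build, so these coordinates do not apply to it. Capitals mark a match to AGGTCA, the core letters bound by ROR-type nuclear receptors, or to CAGATG, an E-box form.
Gabra6, chr11:42321073-42321322, minus strand: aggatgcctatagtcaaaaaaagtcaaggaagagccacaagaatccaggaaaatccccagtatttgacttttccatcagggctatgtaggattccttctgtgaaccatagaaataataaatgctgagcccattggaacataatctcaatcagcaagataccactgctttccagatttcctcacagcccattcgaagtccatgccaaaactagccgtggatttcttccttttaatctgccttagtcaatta
Cbln3, chr14:55884257-55884506, minus strand: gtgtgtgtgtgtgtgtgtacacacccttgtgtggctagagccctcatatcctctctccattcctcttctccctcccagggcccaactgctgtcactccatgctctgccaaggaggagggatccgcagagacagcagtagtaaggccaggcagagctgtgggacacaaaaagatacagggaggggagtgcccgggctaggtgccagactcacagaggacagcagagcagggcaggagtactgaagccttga
Pcp2, chr8:3625548-3625797, minus strand: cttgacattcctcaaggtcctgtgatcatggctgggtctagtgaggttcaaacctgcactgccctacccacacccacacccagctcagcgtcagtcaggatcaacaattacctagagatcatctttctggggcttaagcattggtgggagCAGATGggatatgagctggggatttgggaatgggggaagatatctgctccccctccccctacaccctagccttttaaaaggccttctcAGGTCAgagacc
Both motifs were searched on both strands. AGGTCA was found in 1 of the 6 windows, that of Pcp2, with its first base 12 bases before the start, and in 14% of 32851 RefSeq windows of the same length. CAGATG was also found in the Pcp2 window alone, 100 bases before the start, and in 14.4% of all windows. The matches did not overlap. The Gabra6 window held 40.8% G and C bases, the Cbln3 window 57.6% and the Pcp2 window 52.8%.

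The main feature of the data was a division of the adult libraries. The adult KO3 brains and wild-type set 2 held all 10 genes at clear levels, while the adult KO2 brains and wild-type set 1 held almost none of the genes that are restricted to cerebellum. The 4 columns of KO3 and set 2 had also been handled alike before deposit and apart from the other 10: 9994 genes (42.8%) were at 0 in all 4, and 6396 of these were above 0 elsewhere. For that reason KO2 was compared with set 1 and KO3 with set 2. That pairing comes from the table and not from the labels. Handling and the level of cerebellar genes divide the adult libraries in the same way and cannot be told apart. In bulk tissue, fewer cells of a type and less RNA per cell cannot be told apart either.

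Gabra6 encodes the alpha subunit that gives the GABA-A receptors of mature granule neurons their particular pharmacology. Its level was 42.9 and 59.1 FPKM in wild-type set 2 and 47.3 and 29.1 FPKM in KO3. It was 0 in both libraries of set 1 and 0 and 0.127 FPKM in KO2. The lowest library of one side thus lay far above the highest of the other. Between the wild-type sets the log2 difference was 5.68 ± 0.21 (SE; limma adjusted p = 8.02e-08), a size that depends on the pseudocount because set 1 was listed at 0.

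Cbln3, a cerebellin that granule neurons secrete together with Cbln1, followed Gabra6 closely. It stood at 31.7 and 38.3 FPKM in set 2, 35.1 and 26.2 FPKM in KO3, 0.0359 and 0.0432 FPKM in set 1, and 0.0608 and 0.200 FPKM in KO2. The mean of set 1 was 0.113% of that of set 2, and the log2 difference was 5.11 ± 0.16 (SE; limma adjusted p = 2.89e-08). Within the 4 libraries that held both genes, Cbln3 stood at 0.649 to 0.901 of the Gabra6 level, a narrow range.

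Cbln1, a secreted protein of the synapse between parallel fibres and Purkinje cells, was reduced in set 1 but not lost. It measured 69.9 and 80.0 FPKM in set 2, 75.3 and 72.9 FPKM in KO3, 7.76 and 16.3 FPKM in set 1, and 13.7 and 21.4 FPKM in KO2. Set 1 held 16.1% of the set 2 mean (log2 difference 2.62 ± 0.27, SE; limma adjusted p = 0.000200). Zic1, a zinc finger factor of granule neurons and of their progenitors, measured 51.1 and 61.9 FPKM in set 2, 49.1 and 42.2 FPKM in KO3, 13.0 and 22.5 FPKM in set 1, and 20.1 and 22.5 FPKM in KO2. The sides did not overlap for either gene, and set 1 kept 31.5% of the set 2 mean of Zic1 (log2 difference 1.65 ± 0.20, SE; limma adjusted p = 0.000384).

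Pcp2, a modulator of inhibitory G proteins in Purkinje cells, gave the largest difference among the 10 genes on the log2(FPKM + 1) scale, while the ratio of means was larger for Cbln3 (885) than for Pcp2 (593). It measured 162 and 155 FPKM in set 2 and 189 and 372 FPKM in KO3, against 0 and 0.535 FPKM in set 1 and 0.967 and 6.54 FPKM in KO2. The set 1 mean was 0.169% of the set 2 mean (log2 difference 7.01 ± 0.79, SE; limma adjusted p = 0.000276). Car8, a carbonic anhydrase relative that binds the inositol trisphosphate receptor of Purkinje cells, measured 33.0 and 24.4 FPKM in set 2, 32.7 and 33.0 FPKM in KO3, 3.07 and 2.66 FPKM in set 1, and 1.45 and 2.73 FPKM in KO2. Set 1 held 9.99% of the set 2 mean of Car8 (log2 difference 2.93 ± 0.22, SE; limma adjusted p = 3.91e-05).

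The calcium-binding proteins Calb1 (calbindin) and Pvalb (parvalbumin) fill Purkinje cells and also neurons of cortex and other regions, and both stayed high in the libraries without Gabra6. Calb1 measured 78.1 and 80.6 FPKM in set 2, 81.0 and 83.0 FPKM in KO3, 35.6 and 34.8 FPKM in set 1, and 32.9 and 41.7 FPKM in KO2. Pvalb measured 142 and 168 FPKM in set 2, 248 and 475 FPKM in KO3, 53.3 and 50.2 FPKM in set 1, and 62.5 and 88.1 FPKM in KO2. Set 1 kept 44.4% of the set 2 mean of Calb1 (log2 difference 1.15 ± 0.16, SE; limma adjusted p = 0.000762) and 33.4% of that of Pvalb (log2 difference 1.56 ± 0.35, SE; limma adjusted p = 0.0101).

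Gng13, a G protein gamma subunit of Purkinje cells and of sensory neurons, was the only one of the 10 whose sides overlapped. It measured 87.4 and 127 FPKM in set 2, 191 and 512 FPKM in KO3, 46.6 and 52.3 FPKM in set 1, and 105 and 41.5 FPKM in KO2. The KO2 library at 105 FPKM lay above the set 2 library at 87.4 FPKM, and the difference between the wild-type sets did not pass the test (log2 difference 1.08, 95% confidence interval 0.12 to 2.04; limma adjusted p = 0.0997). En2, a homeobox factor of the midbrain-hindbrain region that persists in granule neurons, measured 6.10 and 8.41 FPKM in set 2, 7.47 and 4.99 FPKM in KO3, 0.211 and 0.386 FPKM in set 1, and 0.184 and 1.67 FPKM in KO2 (log2 difference between the wild-type sets 2.66 ± 0.58, SE; limma adjusted p = 0.00876).

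**Figure D1:**
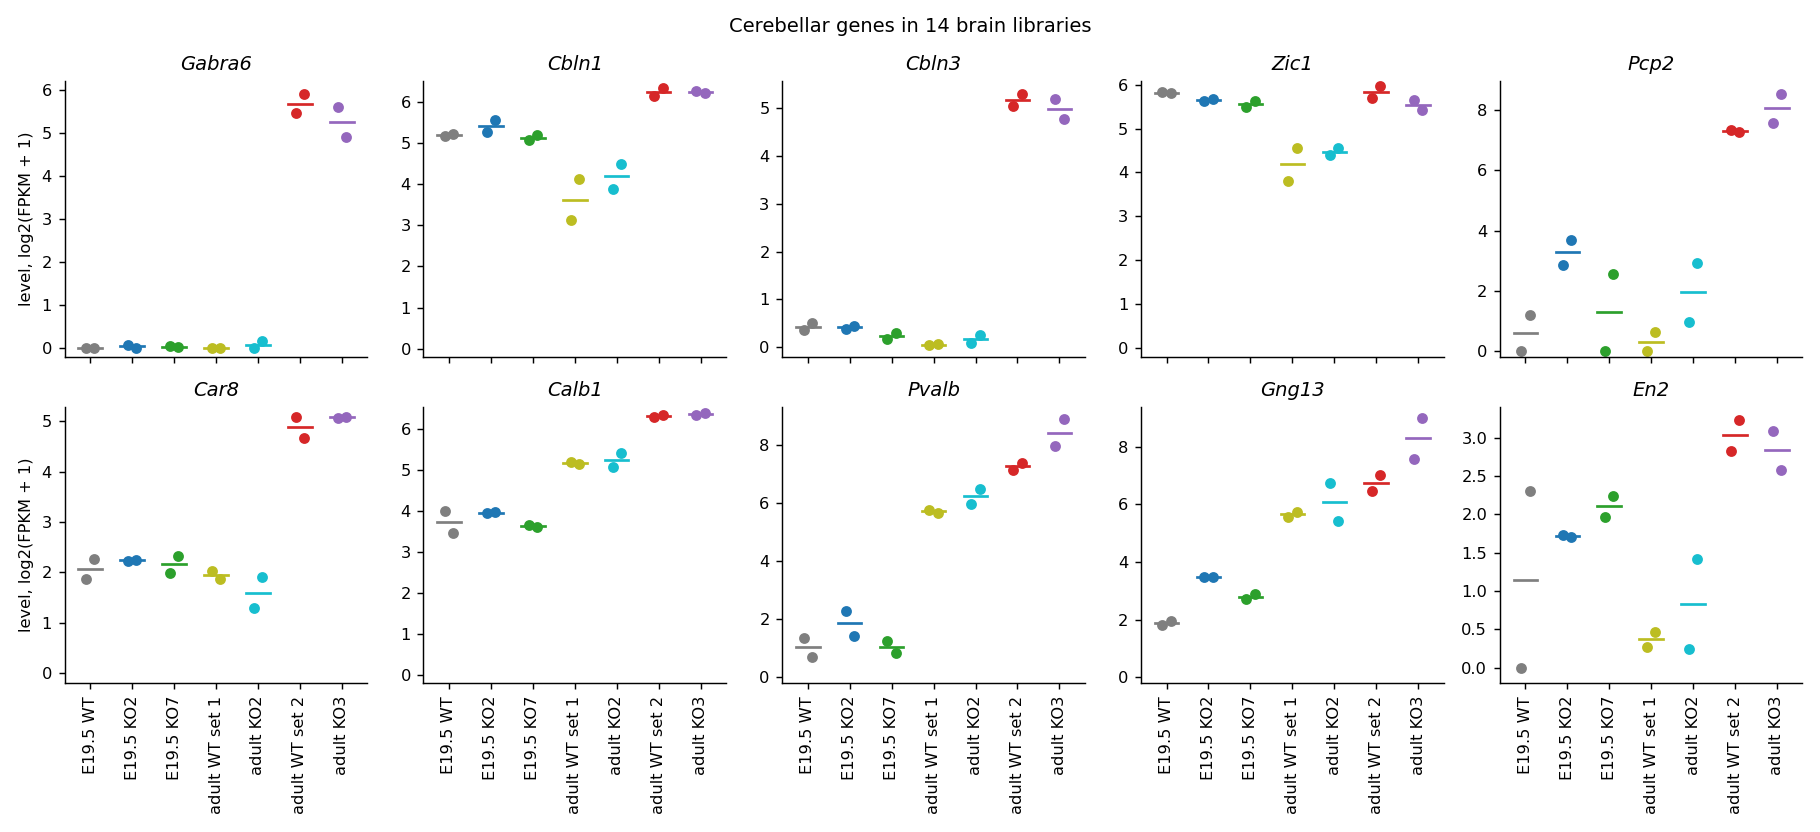
Level of each of the 10 genes, as log2(FPKM + 1), in the 14 libraries, by group. Each point is a library and each line the mean of its group (n = 2). Gabra6, Cbln3, Pcp2, Car8 and En2 are high in adult wild-type set 2 and KO3 and low in the other 2 adult groups, whereas Gng13 overlaps between them.

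Across the comparison of the 2 wild-type sets, 9 of the 10 genes were higher in set 2 and 0 were lower, where 6.84% of all tested genes were higher, 14% were lower and 20.9% differed in either direction (limma, adjusted p under 0.05). The median log2 difference of the 10 genes was 2.64, against -0.0593 over all tested genes. Ranked by the log2 difference among 14322 genes, Pcp2 stood at place 3, Gabra6 at 4, Cbln3 at 5, Car8 at 12, En2 at 15 and Cbln1 at 16, while Gng13, at 136, was the lowest of the 10. For 9 of the 10 genes, all 4 libraries of set 2 and KO3 lay above all 4 of set 1 and KO2, which held for 6.17% of all tested genes. Gabra6 and Cbln3 passed the filter only through set 2 and KO3, with at most 0.127 and 0.429 FPKM in all other libraries. They could not have come out lower here, so their place in these counts and ranks gives no separate support. Of the 2010 genes that were lower in set 2, 709 were listed at 0 in all 4 libraries of set 2 and KO3. With any 1 of the 4 wild-type libraries left out, 7 to 9 of the genes remained called. The calls lost were those of Pvalb (limma adjusted p = 0.0511, 0.0569 and 0.0723 without set 1 replicate 1, set 1 replicate 2 and set 2 replicate 2) and of En2 (limma adjusted p = 0.0572 without set 1 replicate 1 and 0.0676 without set 2 replicate 2).

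The 10 genes did not give 1 common share of cerebellum. The set 1 mean was 0% of the set 2 mean for Gabra6, under 1% for Cbln3 and Pcp2, 4.11% for En2, 9.99% for Car8, 16.1% for Cbln1 and between 31.5% and 46.1% for Zic1, Pvalb, Calb1 and Gng13. Adult KO2 stood at 0.167% of KO3 for Gabra6, 0.425% for Cbln3 and 1.34% for Pcp2, at 6.36% for Car8, 14.9% for En2, 23.7% for Cbln1, 20.8% for both Pvalb and Gng13, 45.5% for Calb1 and 46.6% for Zic1. KO2 and KO3 were not fitted against each other.

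The order of the genes by level changed with the side as well. In set 2, Pcp2 and Pvalb were at the top with overlapping libraries (means 159 and 155 FPKM), followed by Gng13 (107 FPKM), by Calb1 and Cbln1, which overlapped (79.3 and 74.9 FPKM), by Zic1 and Gabra6, which overlapped (56.5 and 51.0 FPKM), by Cbln3 and Car8, which overlapped (35.0 and 28.7 FPKM), and by En2 (7.26 FPKM). In set 1, Pvalb and Gng13 overlapped at the top (means 51.8 and 49.4 FPKM), then came Calb1 (35.2 FPKM), Zic1 and Cbln1, which overlapped (17.8 and 12 FPKM), and Car8 (2.86 FPKM). The other 4 genes had means under 1 FPKM in set 1. FPKM is a level per transcript length, but the annotation and scaling behind it are not stated, so this order of genes is a rough one.

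**Figure D2:**
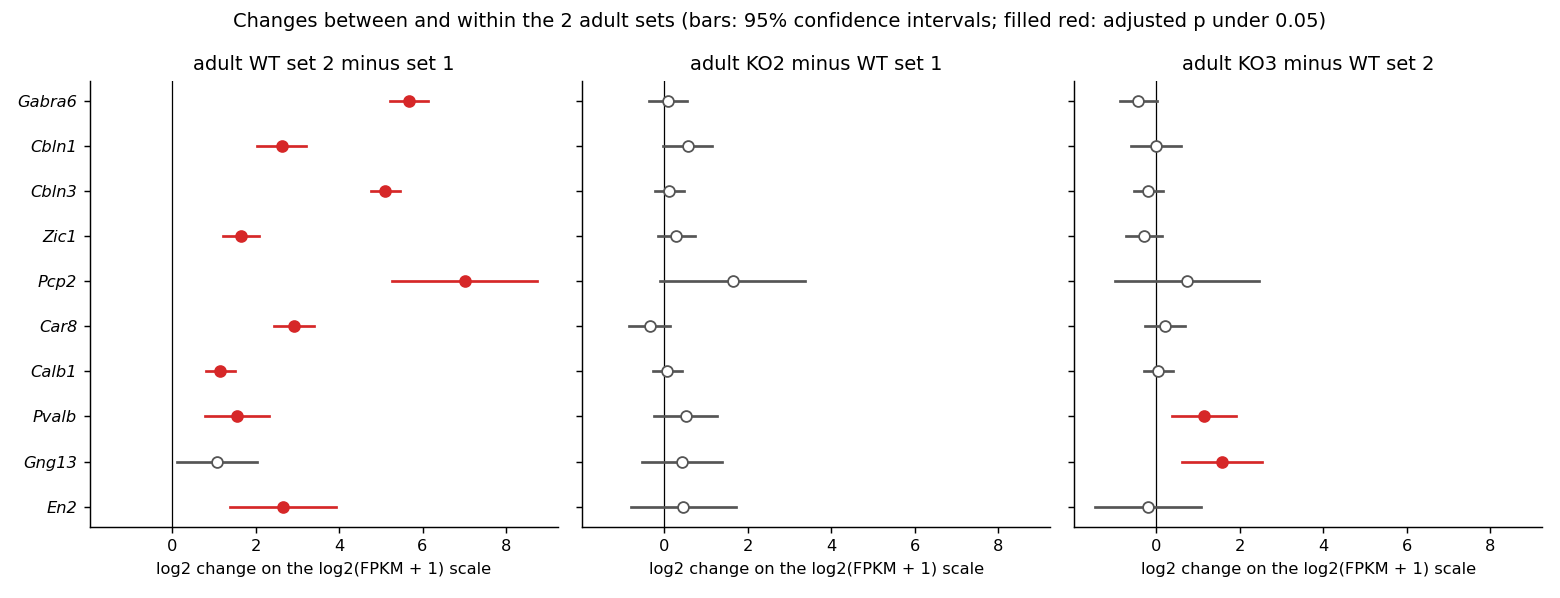
Difference of each gene on the log2(FPKM + 1) scale with its 95% confidence interval, between the wild-type sets (left), KO2 minus set 1 (middle) and KO3 minus set 2 (right). Filled red points passed an adjusted p of 0.05 in limma. The left panel has 9 red points, the middle 0 and the right 2, Pvalb and Gng13.

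Other genes of the same cells also differed between the wild-type sets. Of 18 further granule neuron genes, 12 were higher in set 2 and 0 lower, with a median log2 difference of 0.93. Neurod1, a differentiation factor of granule neurons, had means of 42.4 FPKM in set 2 and 2.96 FPKM in set 1 (log2 difference 3.46 ± 0.25, SE; limma adjusted p = 3.81e-05). Fat2, a protocadherin-like protein of parallel fibres, had means of 13.6 and 0.0520 FPKM, and Chn2, a Rac regulator, of 69.2 and 15.3 FPKM. With 1 wild-type library left out, 9 to 12 of the 18 were higher.

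Of 24 further Purkinje cell genes tested, 12 were higher in set 2 and 1 was lower, with a median log2 difference of 0.63. Ppp1r17, a phosphatase inhibitor of Purkinje cells, had means of 18.0 FPKM in set 2 and 0.549 FPKM in set 1 (log2 difference 3.66 ± 0.28, SE; limma adjusted p = 3.95e-05). The calcium pump Atp2a3 (10.9 and 2.45 FPKM) and the synaptic scaffold Homer3 (12.4 and 3.12 FPKM) were higher too. Pcp4, a calmodulin regulator that is also abundant in striatum, was the lower one, with 643 FPKM in set 2 and 1451 FPKM in set 1. This call was lost without either set 1 library and without set 2 replicate 1. With 1 wild-type library left out, 8 to 11 of the 24 were higher.

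The other cell types of the cerebellum differed in part. Of 10 Bergmann glia genes, 4 were higher and 0 lower, led by Gdf10, a secreted growth factor, at 13.9 and 2.79 FPKM (log2 difference 1.97 ± 0.13, SE; limma adjusted p = 2.78e-05); without 1 wild-type library, 2 or 3 were. Of 8 tested genes of cerebellar interneurons and unipolar brush cells, 4 were higher (Kit, Slc6a5, Tfap2a and Eomes) and 0 lower, and 1 or 2 were higher without 1 library. Among 10 tested genes of granule neuron progenitors, Boc was higher and Mfap4, listed at 0 in set 2, was lower. Of 9 tested midbrain-hindbrain patterning genes and 8 tested hindbrain and brainstem genes, 0 passed in limma in either direction, and 2 of each list had an unadjusted p under 0.05.

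Genes of regions in front of the cerebellum were read against the background, in which 14% of all tested genes were lower in set 2 and 2010 of the 2990 called genes were. Of 12 striatal genes, 3 were lower in set 2 (Rgs9, Adora2a and Pde1b) and 0 higher, with a median log2 difference of -0.80. Their summed level was 861 and 920 FPKM in set 1 but 329 and 612 FPKM in adult KO2. It was 474 and 519 FPKM in set 2 and 570 and 724 FPKM in KO3, so this sum did not divide the adult libraries as Gabra6 did. Of 18 forebrain and cortex genes, 3 were lower (Lhx2, Emx1 and Camk2a) and 1 was higher (Bhlhe22), a share of lower genes near the background. Of 6 tested pituitary genes, Prl, Gh and Pomc were lower. Of 11 thalamus and habenula genes, Gpr151, Chrnb4 and Chrna3 were lower, all listed at 0 in set 2. The hormones Prl and Gh had means of 15.7 and 8.77 FPKM in set 1 and were listed at 0 in set 2, where low values may have been removed. The summed level of 10 genes of all neurons was 2344 to 2633 FPKM in set 1, 2441 to 2552 FPKM in KO2, 2506 to 2737 FPKM in set 2 and 2969 to 3102 FPKM in KO3, so neuronal RNA was present on both sides.

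**Figure D3:**
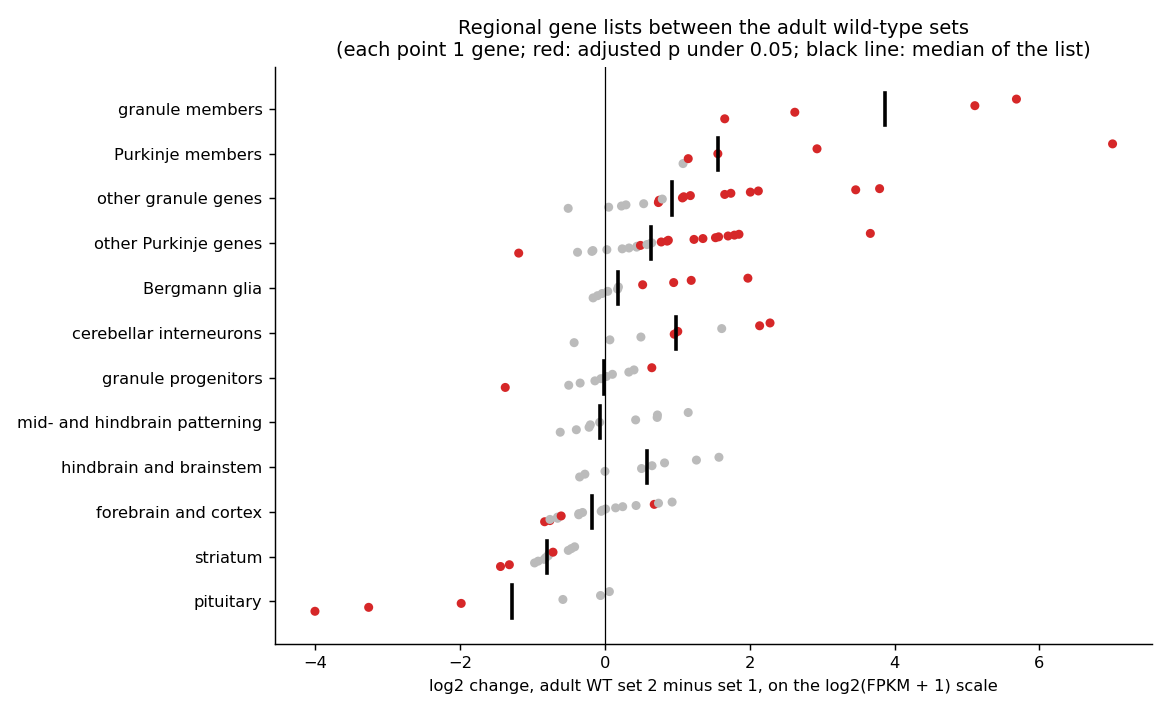
Difference between wild-type set 2 and set 1 for each gene of 12 lists of cell types and regions, on the log2(FPKM + 1) scale. Each point is a gene, red where the adjusted p in limma was under 0.05, and each black line is the median of its list. The granule and Purkinje genes lie mostly to the right, and the striatal and pituitary genes mostly to the left.

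Relatives of the 10 genes differed in part. Zic2, which granule neurons also express, was higher in set 2 (25.0 and 29.5 FPKM against 6.23 and 10.1 FPKM; log2 difference 1.65 ± 0.17, SE; limma adjusted p = 0.000222), and so was Zic5 (log2 difference 0.75 ± 0.18, SE; limma adjusted p = 0.0137). Zic4 did not pass (limma adjusted p = 0.229). Gabra2, Gabra3, Gabra4 and Gabra5, which encode other alpha subunits of the GABA-A receptor, did not pass (limma adjusted p = 0.632, 0.377, 0.913 and 0.0549). Cbln4, En1 and Calb2 did not pass either (limma adjusted p = 0.843, 0.445 and 0.248).

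Genes like Gabra6 and Pcp2 over the 8 adult libraries were searched among 12446 of the 14322 tested genes. These had a mean of 1 FPKM or more in every adult group. Genes nearly absent from an adult group, as Gabra6 and Pcp2 are from set 1, were thus left out and may lie closer. Among the genes searched, those closest to Gabra6 were Gdf10 (Pearson's r of log2(FPKM + 1) 0.997), Fam107b (0.995), Chn2 (0.991), Megf11 (0.990) and Cenpc1 (0.989). Those closest to Pcp2 were Cald1 (0.988), Gm20604 (0.984), Homer3 (0.983), Chd7 (0.982) and Ctage5 (0.981). These values describe 8 libraries that fall into 2 blocks, and any gene that differs evenly between the blocks scores high. Among the 10 genes themselves, r ran from 0.596 for Gng13 with En2 to 0.999 for Gabra6 with Cbln3. Over the 14 deviations from group means, which amount to 7 values because the 2 libraries of a group mirror each other, the genes close to the mean deviation of the 10 included Pxn (0.916), Alk (0.910), Tmem26 (0.904) and Cenpl (0.901), from the top of 14312 genes searched.

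Between adult KO2 and wild-type set 1, 0 of the 10 genes passed in limma, where 0.154% of all tested genes did (0.105% higher and 0.0489% lower). Gabra6, Cbln3 and En2 had means under 1 FPKM in both groups and could hardly be called. With only the 2 groups in the fit, 6 of the 10 genes passed the filter, and 0 of these were called. At an unadjusted p under 0.05 there were 0 of the 10 and 1051 of all tested genes. The 10 log2 differences, those of the genes under 1 FPKM among them, had a median of 0.35, against 0.0428 over all tested genes, and 9 were above 0. The intervals were wide for the low genes: that of Pcp2 ran from -0.09 to 3.37. The interval of Calb1, which both groups held in quantity, ran from -0.28 to 0.42. One KO2 library differed from its partner in hindbrain genes: replicate 2 held En2 at 1.67 FPKM, En1 at 2.23 FPKM and the serotonin neuron genes Tph2 at 8.50 FPKM and Slc6a4 at 5.88 FPKM, against 0.184, 0.0630, 0.229 and 0.0161 FPKM in replicate 1, with Gabra6 at 0.127 FPKM. The part of this in the differences was not tested.

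Between adult KO3 and wild-type set 2, the 2 adult groups with high Gabra6, Cbln3 and Pcp2, 2 of the 10 genes were higher in KO3 and 0 lower, where 13.9% of all tested genes were higher, 8.2% were lower and 22.1% differed in either direction. The 2 were Gng13 (means 351 ± 227 and 107 ± 27.9 FPKM, SD, n = 2; log2 difference 1.56 ± 0.44, SE; limma adjusted p = 0.0307) and Pvalb (means 361 ± 161 and 155 ± 18.1 FPKM, SD, n = 2; log2 difference 1.15 ± 0.35, SE; limma adjusted p = 0.0390). A share of 2 in 10 lies near the background. Both calls were lost without KO3 replicate 2 (log2 differences 0.85 and 0.68; limma adjusted p = 0.267 and 0.325), and also without either wild-type library. They were lost as well with only the 4 compared libraries in the fit (limma adjusted p = 0.0834 for Gng13 and 0.105 for Pvalb), where 67 genes in all were called in place of 3164. With no filter on low values (limma adjusted p = 0.0676 and 0.0814) and with quantile scaling (limma adjusted p = 0.0758 and 0.215) neither passed, and at a pseudocount of 0.1 Pvalb did not (limma adjusted p = 0.0925).

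Of the 4 granule neuron genes, 0 passed in limma between KO3 and set 2, and 0 had an unadjusted p under 0.05. Gabra6 had means of 38.2 ± 12.9 FPKM in KO3 and 51.0 ± 11.4 FPKM in set 2 (SD, n = 2; log2 difference -0.43, 95% confidence interval -0.88 to 0.03; limma adjusted p = 0.147). The log2 difference of Cbln1 was -0.01 (95% confidence interval -0.61 to 0.58), that of Cbln3 -0.19 (-0.54 to 0.16) and that of Zic1 -0.30 (-0.74 to 0.14). Calb1 and Car8 also lay close to 0, at 0.05 (-0.30 to 0.39) and 0.21 (-0.28 to 0.69). Intervals of this width leave room for differences of a fair size in either direction.

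KO3 replicate 2 stood apart from the other 3 libraries of KO3 and set 2. Its ratio of Pcp2 to Gabra6 was 12.8, against 4.0 in KO3 replicate 1 and 3.78 and 2.63 in set 2. Its ratio of Gng13 to Car8 was 15.5, against 5.83, 2.65 and 5.20. Its ratio of Pvalb to Calb1 was 5.73, against 3.06, 1.82 and 2.08. The genes that stood high in it, Pcp2, Gng13 and Pvalb, thus departed from Car8 and Calb1, which mark the same Purkinje cells and whose ratio to each other was 0.303 to 0.422 in all 4 libraries. The median of 77 ribosomal protein genes was 602 FPKM in KO3 replicate 2, 361 FPKM in KO3 replicate 1, and 191 and 198 FPKM in set 2. It was 357 to 419 FPKM in set 1 and adult KO2. The part of this in the calls of Gng13 and Pvalb was not tested beyond leaving the library out.

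Of the 24 further Purkinje genes, 7 were lower in KO3 than in set 2 (among them Shank2 and Cacna1g) and 1, Pcp4, was higher. Over all tested genes, 8.2% were lower and 13.9% higher. Shank2, a scaffold protein of excitatory synapses, had means of 12.4 FPKM in KO3 and 23.8 FPKM in set 2 (log2 difference -0.91 ± 0.18, SE; limma adjusted p = 0.0119). Of the 18 further granule genes, Fat2 was lower (7.05 and 4.48 against 12.6 and 14.6 FPKM; log2 difference -1.13 ± 0.18, SE; limma adjusted p = 0.00937) and Calb2 higher (limma adjusted p = 0.0470). The calls of both lists depended on which library was left out. The median log2 difference of the 24 Purkinje genes was -0.18 without KO3 replicate 2 and -0.21 without KO3 replicate 1. It was -0.027 without set 2 replicate 1 and -0.28 without set 2 replicate 2. For the 18 granule genes these medians were -0.11, -0.22, -0.14 and -0.20, in the same order.

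At E19.5, Gabra6 was 0 to 0.0632 FPKM and Cbln3 0.130 to 0.429 FPKM in all 6 libraries, whereas Zic1 (44.0 to 55.6 FPKM), Cbln1 (32.5 to 46.2 FPKM) and Calb1 (10.1 to 15 FPKM) were already high. In wild type, Zic1 and Cbln1 had means of 55.3 ± 0.377 and 35.6 ± 0.823 FPKM (SD, n = 2). Car8 (2.67 and 3.79 FPKM), Gng13 (2.56 and 2.87 FPKM) and En2 (0 and 3.93 FPKM) overlapped below them. Pvalb (1.58 and 0.629 FPKM) and Pcp2 (0 and 1.30 FPKM) overlapped too, and were the lowest of the genes that reached 1 FPKM in wild type.

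Between E19.5 KO2 and wild type, 0 of the 10 genes passed in limma, where 1.28% of all tested genes did (0.88% higher and 0.398% lower). Gabra6 and Cbln3 stayed under 1 FPKM in both groups and passed the filter only through adult set 2 and KO3, so they could hardly be called here. At an unadjusted p under 0.05 there were 3 of the 10 (Gng13, Pcp2 and Pvalb) and 2305 of all tested genes. The log2 differences of the 10 genes had a median of 0.22, against -0.00571 over all tested genes, and 8 were above 0. All 5 Purkinje genes were among these 8, while Zic1 and Cbln3 were below 0. Gng13 measured 10.2 and 10.2 FPKM in KO2 and 2.56 and 2.87 FPKM in wild type (log2 difference 1.59 ± 0.44, SE; limma adjusted p = 0.113), and Pcp2 measured 6.26 and 11.9 FPKM against 0 and 1.30 FPKM (log2 difference 2.67 ± 0.79, SE; limma adjusted p = 0.132). The libraries of the 2 groups did not overlap for either gene. With 2 libraries against 2 this often happens by chance, and its share over all tested genes was not counted. With only the 4 compared libraries in the fit, both passed (limma adjusted p = 0.00200 for Gng13 and 0.0207 for Pcp2), and Pcp2 passed with the replicate number as a block (limma adjusted p = 0.0325). Over the alternatives, the adjusted p ran from 0.00200 to 0.491 for Gng13 and from 0.0207 to 0.747 for Pcp2.

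Between E19.5 KO7 and the same wild-type libraries, 0 of the 10 genes passed in limma, where 4.45% of all tested genes did (3.02% higher and 1.43% lower). Gabra6 and Cbln3 were under 1 FPKM in KO7 as well. At an unadjusted p under 0.05 there were 0 of the 10 and 3026 of all tested genes. Gng13 measured 5.52 and 6.43 FPKM in KO7 (log2 difference 0.91 ± 0.44, SE; limma adjusted p = 0.259). Pcp2 measured 0 and 4.89 FPKM, and all 10 genes lay within 1 log2 unit of wild type. The KO2 and KO7 comparisons share their 2 control libraries. In KO2, Grin2c and Meis1 of the further granule genes were higher and Homer3 of the Purkinje genes lower. In KO7, the Purkinje genes that were lower included Cacna1g, and the progenitor genes Cxcr4 and Mfap4 were higher. Gdf10 of Bergmann glia was higher in both, at 11.5 FPKM in KO2 and 7.85 FPKM in KO7 against 5.09 FPKM in wild type (limma adjusted p = 0.00695 and 0.0472).

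Wild-type replicate 1 at E19.5 held midbrain-hindbrain genes at a lower level than the other 5 libraries. En2 was 0 in it, against 2.26 to 3.93 FPKM in the other 5, and En1 was 0.0349 FPKM, against 2.49 to 5.13 FPKM. The factors Tfap2b and Barhl1 stood at 0.283 and 0.560 FPKM, against 5.23 to 16 and 5.16 to 6.78 FPKM. The summed level of 14 midbrain-hindbrain patterning genes was 18.6 FPKM in it and 40.4 to 49.7 FPKM in the other 5, and 1 of the 14 was at 0 in it, as in wild-type replicate 2. The genes named here were chosen for their low values in it. The granule genes did not share this gap, since Zic1 was 55.6 and 55.0 FPKM and Cbln1 35.0 and 36.2 FPKM in the 2 wild-type libraries. The difference of En2 between knockout and wild type at E19.5 turned on this library. It was 0.57 for KO2 and 0.96 for KO7 on the log2 scale, -0.58 and -0.19 without wild-type replicate 1, and 1.72 and 2.11 without replicate 2, the last with a limma adjusted p of 0.0304. KO2 replicate 2 at E19.5 held the highest level of hindbrain genes, with a sum of 39.8 FPKM over 19 hindbrain and brainstem genes, against 22.1 FPKM in KO2 replicate 1 and 3.81 to 13.0 FPKM in the other 4. Glial genes were also high in E19.5 KO2. The summed level of 8 oligodendrocyte genes was 178 and 103 FPKM in KO2 against 40.1 and 48.9 FPKM in wild type, and 2 of the 8 were higher and 0 lower. The sum of 8 astrocyte genes was 525 and 488 FPKM against 233 and 279 FPKM, and 1 of the 8 was higher and 0 lower. The part of hindbrain and glial genes in the KO2 differences was not tested.

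**Figure D4:**
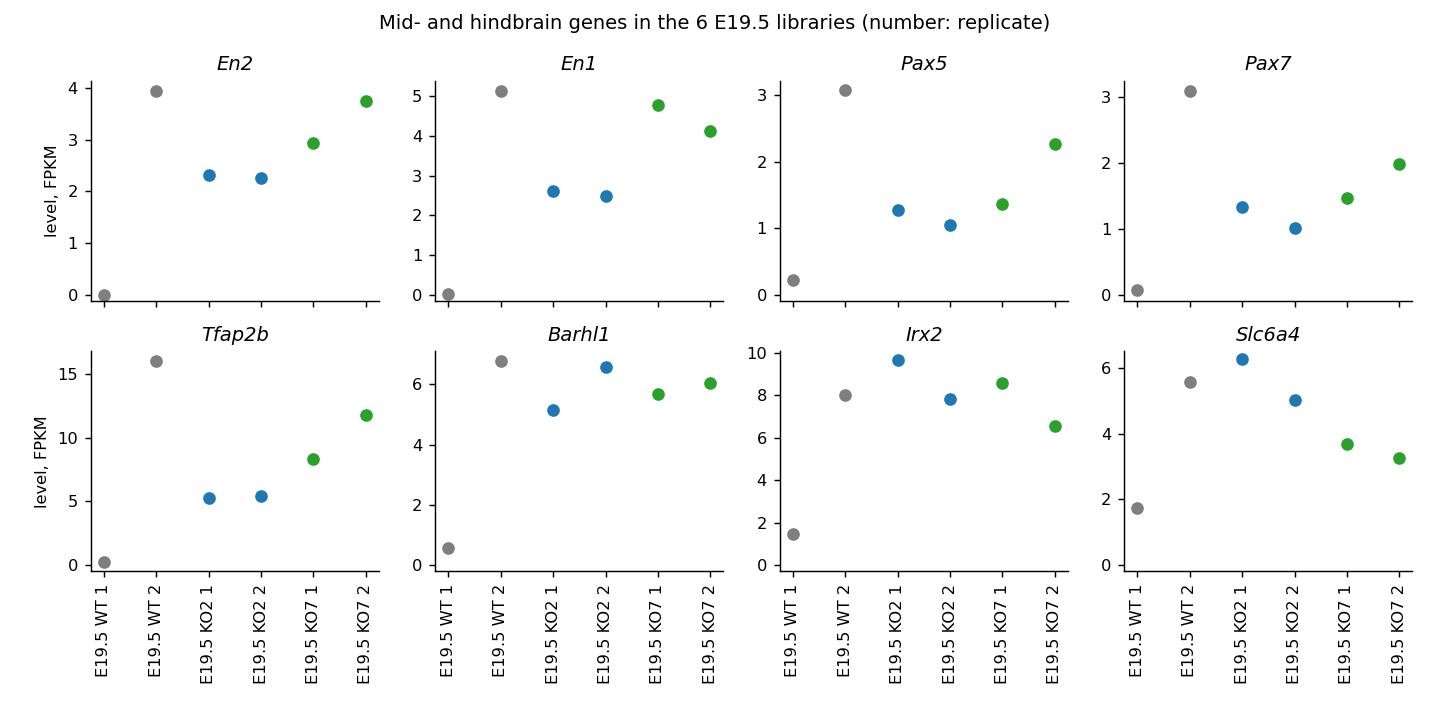
Levels in FPKM of En2 and 7 other genes of midbrain and hindbrain in the 6 libraries at E19.5. Each point is a library. Wild-type replicate 1 is the lowest library in every panel, with En2 at 0 against 2.26 to 3.93 FPKM in the other 5.

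From E19.5 to the adult, the same genes changed differently according to the wild-type set used. With set 1, Pvalb, Gng13 and Calb1 rose, Zic1 and Cbln1 fell and the other 5 genes did not pass, where 56% of all tested genes changed (21.9% rose and 34.1% fell). Among those that did not pass, Gabra6, Cbln3 and Pcp2 had means under 1 FPKM in both groups and could hardly be called. With set 2, 9 of the 10 genes rose and 0 fell, where 60.9% of all tested genes changed (22% rose and 38.9% fell). Zic1 was the exception, with overlapping libraries (55.6 and 55.0 FPKM before birth, 51.1 and 61.9 FPKM in set 2; log2 change 0.02, 95% confidence interval -0.41 to 0.46; limma adjusted p = 0.930). The 2 comparisons share the E19.5 libraries. In that with set 2, Gabra6 and Cbln3, which passed the filter only through set 2 and KO3, could not have fallen. The median change of all tested genes was -0.148 for set 1 and -0.204 for set 2, and became 0.00443 and -0.0330 after median-of-ratios scaling. The changes that passed kept their direction under that scaling and under quantile scaling.

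Cbln1 changed in opposite directions. It fell from 35.6 ± 0.823 FPKM at E19.5 to 12 ± 6.04 FPKM in set 1 (SD, n = 2; log2 change -1.57 ± 0.27, SE; limma adjusted p = 0.000490) and rose to 74.9 ± 7.17 FPKM in set 2 (SD, n = 2; log2 change 1.05 ± 0.27, SE; limma adjusted p = 0.00574). The difference between these changes is the difference between the wild-type sets given above, so its test is the same (limma adjusted p = 0.000200). Zic1 fell by 1.63 on the log2 scale with set 1 (SE 0.20; limma adjusted p = 4.19e-05) and did not pass with set 2.

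The calcium-binding and G protein genes rose in both sets. Pvalb, which appears as neurons mature, rose by 4.68 on the log2 scale with set 1 and by 6.24 with set 2 (limma adjusted p = 1.15e-06 and 1.34e-07). Gng13 rose by 3.76 and 4.84 (limma adjusted p = 2.87e-05 and 3.45e-06), and Calb1 by 1.44 and 2.59 (limma adjusted p = 1.95e-05 and 2.42e-07). These 3 are the genes that the libraries without Gabra6 held at high levels. With set 2, Gabra6, Cbln3, Pcp2 and Car8 rose as well (limma adjusted p = 8.02e-09, 7.60e-09, 2.41e-05 and 1.22e-06), from wild-type means at E19.5 of 0, 0.354, 0.652 and 3.23 FPKM. En2 rose with set 2 by 1.88 (limma adjusted p = 0.0145), but by 0.73 without E19.5 wild-type replicate 1 (limma adjusted p = 0.156). With set 1, En2 changed by -0.78 (limma adjusted p = 0.270) and, without that library, fell by 1.93 (limma adjusted p = 0.00330).

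**Figure D5:**
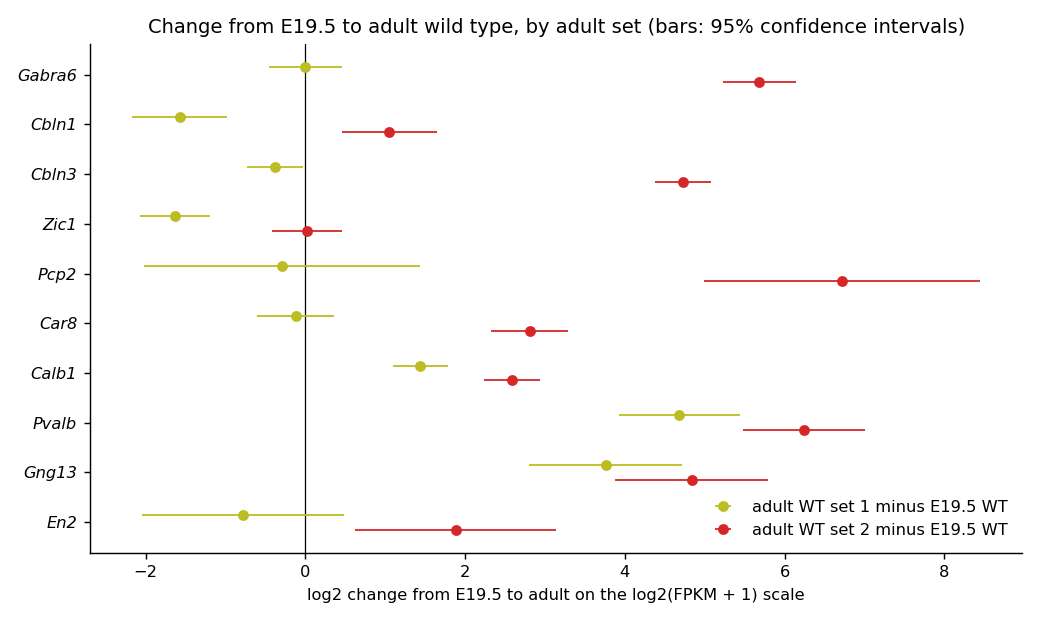
Change of each gene from E19.5 to adult wild type on the log2(FPKM + 1) scale, with its 95% confidence interval, for set 1 (yellow) and set 2 (red). Cbln1 lies below 0 for set 1 and above 0 for set 2, while Pvalb, Gng13 and Calb1 lie above 0 for both.

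In KO2, from E19.5 to the adult, Pvalb, Gng13 and Calb1 rose and Zic1, Cbln1 and Car8 fell, where 49.3% of all tested genes changed (20.7% rose and 28.6% fell). The log2 changes were 4.37 ± 0.35, 2.58 ± 0.44 and 1.28 ± 0.16 for the first 3, and -1.17 ± 0.20, -1.23 ± 0.27 and -0.65 ± 0.22 for the others (SE; limma adjusted p = 0.0291 for Car8 and lower for the rest). Car8 did not pass without adult KO2 replicate 1 (limma adjusted p = 0.267) or without either E19.5 KO2 library. With the replicate number as a block, Pcp2 fell as well (log2 change -1.33; limma adjusted p = 0.0398, against 0.182 without the block), which made 7 of the 10. In the test of whether the KO2 difference from wild type differed between the stages, with set 1 as the adult control, 0 of the 10 genes passed in limma, where 0.0628% of all tested genes did (0.0349% higher and 0.0279% lower). At an unadjusted p under 0.05 there were 0 of the 10 and 2118 of all tested genes. Gabra6 and Cbln3 were under 1 FPKM in all libraries of this test.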

How the data were processed

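Expression was measured as FPKM in 14 mouse brain libraries, deposited by the authors in 1 table. Per the submitters' processing notes, CASAVA, TopHat2 2.1.1, Cufflinks 2.2.1 and build mm9 were used, with no role given; what annotation, strand setting and scaling applied is not stated. In 10 columns the header keeps the word FPKM; the other 4 (adult KO3 and wild-type set 2) were taken as FPKM. There, the smallest per-gene maximum above 0 was 1.02, so low values may have been removed. Ratios of low values between 2 libraries, in bins of 0.05 log2, put at most 14.6% into 1 bin. Whether this reflects steps of whole reads was not tested, and depth is unknown. In each library 12701 to 13398 genes reached 1 FPKM. A further 2 rows named no gene and were left out.

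Log2(FPKM + 1) of the 14322 genes that reached 1 FPKM in 2 or more libraries was fitted as 7 group means with limma 3.58.1 (R 4.3.3; trend, 2-sided, Benjamini-Hochberg over all tested genes, threshold 0.05, 7 residual degrees of freedom). The procedure was tested on simulated data. Within groups, r across genes was 0.964 to 0.983, and each library counted once. The members and gene lists were chosen with earlier results of these data known. Comparisons of wild-type set 2 with set 1 and with E19.5, and the fit without 2 libraries, were added after the data were seen. Named are all 10 members, up to 3 genes per list and direction with the smallest p, and paralogs. Also named are the 5 genes, among those searched, most like Gabra6, Pcp2 or the members' mean deviation. Some genes that this rule names are not reported here. Eomes and the hindbrain genes En1, Tfap2b, Barhl1, Pax5, Pax7, Irx2, Tph2 and Slc6a4 were chosen after their values were seen.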

Additional observations from a re-analysis of the deposited data

Results flagged for a closer look

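Cbln1 changed in opposite directions from E19.5 to adult wild type depending on the adult set. Both set 1 libraries (7.76 and 16.3 FPKM) lay below both E19.5 libraries (35.0 and 36.2 FPKM), and both set 2 libraries (69.9 and 80.0 FPKM) lay above them. The change with set 2 exceeded that with set 1 by 2.62 on the log2 scale (limma adjusted p = 0.000200). A member was flagged only if both changes were called, in opposite directions, and the difference between the sets was called too. Passing the test was thus a condition of the flag. Of the members, only Cbln1 met this rule, and its share over all tested genes was not counted.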

How the results depend on the processing

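With 2 libraries per group and FPKM of unknown depth, intervals are wide, and calls near the threshold depend on the spread shared by all 14 libraries. Levels listed at 0 in set 2 and KO3 give no floor. The comparison of set 2 with set 1 gave 9 of the 10 genes as higher in set 2, and how many stayed called depended on the library left out. Of these, Gabra6 and Cbln3 passed the filter only through set 2 and KO3. In all cases below, the cause was not tested. Changes are on the log2 scale, and "interaction" is the adult KO2 difference minus that at E19.5.

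With only the compared groups in the fit, the calls were 602 genes in the E19.5 KO2 comparison (183 in the reported fit), 1228 in that of KO7 (637), 8 in that of adult KO2 (22), 67 in that of adult KO3 (3164) and 321 for the interaction (9), which included 2 of the 10 cerebellar genes in the E19.5 KO2 comparison, 1 in that of KO7 and 0 in that of adult KO3. With no filter on low values the calls were 391 for E19.5 KO2, 65 for adult KO2, 1751 for adult KO3 (0 of the 10) and 122 for the interaction. Quantile scaling gave 301 in the E19.5 KO2 comparison, 965 in that of KO7, 54 for the interaction and 0 of the 10 for adult KO3, with Calb1 at -0.30 for adult KO3 and En2 at 0.0080 for the interaction. Median-of-ratios scaling turned Car8 to 0.021 from E19.5 to set 1. A pseudocount of 0.1 gave 1 of the 10 for adult KO3, 21 genes for the interaction and Pvalb at 0.030 for E19.5 KO7. A pseudocount of 10 gave 19 genes for the interaction, with Pvalb at 0.25 and En2 at 0.024.

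Pooling the wild-type sets joins libraries with high and with low Gabra6, Cbln3 and Pcp2. It gave 38 genes in the E19.5 KO2 comparison, 145 in that of KO7, 7 in that of adult KO2 and 3 for the interaction, and 3 of the 10 for each of the changes from E19.5 to adult wild type and to adult KO2. For adult KO2 it reversed Cbln1 (-0.75), Zic1 (-0.54), Pcp2 (-1.87), Calb1 (-0.50), Pvalb (-0.27) and Gng13 (-0.12). For adult KO3 it reversed Gabra6 (2.41), Cbln1 (1.30), Cbln3 (2.36), Zic1 (0.53) and En2 (1.13). From E19.5 to adult wild type it reversed Car8 (1.34) and En2 (0.55), and for the interaction Cbln1 (-0.96) and Zic1 (-0.37).

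Replicate numbers gave no common pairing of the libraries across all tested genes. Over 21 pairs of groups, the correlation of replicate differences ran from -0.333 to 0.233, and 8 were over 0.1. Among the adult groups all correlations were positive (0.0324 to 0.233). The mean of the 10 genes was higher in replicate 2 than in replicate 1 in all 7 groups, with replicate 2 at 0.016 to 0.22 above its group mean on the log2 scale. The reason was not tested. With the replicate number as a block, 1 of the 10, Pcp2, was called for E19.5 KO2, and 7 in place of 6 from E19.5 to adult KO2, with Pcp2 added (-1.33; limma adjusted p = 0.0398). No other call of the 10 genes changed under the block.

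Without E19.5 wild-type replicate 1 and KO3 replicate 2 together, chosen after the data were seen, the calls were 36 in the E19.5 KO2 comparison, 147 in that of KO7, 34 in that of adult KO3 (0 of the 10) and 1 for the interaction. The reversed changes were Car8 (-0.018) and En2 (-0.58) for E19.5 KO2, Car8 (-0.097), Calb1 (0.17), Pvalb (0.33) and En2 (-0.19) for E19.5 KO7, Cbln1 (0.010), Cbln3 (0.012) and En2 (0.052) for adult KO3, and En2 (1.04) for the interaction.

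Leaving out 1 library at a time gave 6 to 68 genes in the E19.5 KO2 comparison, 47 to 272 in that of KO7 (0 to 1 of the 10), 1 to 30 for adult KO2, 8 to 6773 for adult KO3 (0 to 3 of the 10), 2 to 20 for the interaction and 1265 to 1670 for set 2 against set 1 (2990 in the reported fit). The ranges that crossed 0 were, for E19.5 KO2, Car8 (-0.018 to 0.37), Calb1 (-0.034 to 0.49) and En2 (-0.58 to 1.72). For E19.5 KO7 they were Pcp2 (-0.60 to 1.96), Car8 (-0.097 to 0.29), Calb1 (-0.35 to 0.17), Pvalb (-0.33 to 0.33) and En2 (-0.19 to 2.11). For adult KO2 they were Zic1 (-0.082 to 0.66), Calb1 (-0.095 to 0.24) and Gng13 (-0.24 to 1.07), and for adult KO3 Cbln1 (-0.11 to 0.084), Cbln3 (-0.40 to 0.012), Car8 (-0.0052 to 0.42) and En2 (-0.45 to 0.052). From E19.5 to set 1 they were Car8 (-0.31 to 0.073) and En2 (-1.93 to 0.37), and from E19.5 to set 2 Zic1 (-0.11 to 0.16). For the interaction they were Cbln1 (-0.14 to 0.84), Calb1 (-0.42 to 0.11), Pvalb (-0.74 to 0.11) and En2 (-1.26 to 1.04).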
